A study of Mus musculus with 4 samples.

Results

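Transcripts of 10 regulators and structural genes of mesenchymal and fibrosarcoma cells were followed in RNA sequencing libraries of FACS-sorted tumor-associated macrophages (TAMs). The genes were the ligand gene Pthlh, the receptor genes Robo1, Pdgfra and Pdgfrb, the transcription factor genes Nfib, Twist1 and Prrx1, and the contractile genes Cald1, Acta2 and Tagln. They were found in the count table by their Ensembl identifiers with the version removed, through the symbols of GENCODE M21, and make up 10 of the 54146 genes listed. All 10 had a count in every library and passed the filter on low counts. The genes were chosen with results of the comparison of propranolol with vehicle already known, so that their differences between the groups are a description and carry no test.

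The study asked how blockade of beta-adrenergic receptors affects TAMs in vivo. Female mice of 8 to 16 weeks of age received MCA205 cells under the skin. The treated mice were given propranolol hydrochloride at 0.5 g/L in their drinking water from the day of inoculation, and the other mice are labelled vehicle. MCA205 is a mouse fibrosarcoma line, and all 4 libraries came from tumors grown from it in C57BL/6 mice. There were 2 libraries of each group, which the study calls biological replicates. Leukocytes were first enriched with CD45 microbeads, and live CD11b+ F4/80+ cells were then sorted. Neither step selects fibroblasts, pericytes or fibrosarcoma cells.

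Mesenchymal cells are the cells that build and contract connective tissue, and fibrosarcoma cells keep many of their transcripts. TWIST1 and PRRX1 are transcription factors that set mesenchymal identity in the embryo and in connective tissue, and NFIB belongs to the nuclear factor I family. PDGFRA and PDGFRB are tyrosine kinase receptors for platelet-derived growth factors, the former typical of fibroblasts and the latter also of pericytes. ROBO1 is the receptor for SLIT guidance proteins, and parathyroid hormone-related protein, encoded by Pthlh, acts on the receptor PTH1R. Acta2, Tagln and Cald1 encode smooth muscle alpha-actin, transgelin and caldesmon, actin and actin-binding proteins of smooth muscle cells, pericytes and myofibroblasts, and their genes are known targets of serum response factor (SRF).

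The counts added up to 13798249 and 23018142 in vehicle replicates 1 and 2 and to 39818103 and 16424081 in propranolol replicates 1 and 2. Values are given as CPM, the share of a gene in the TMM-normalized total count of its library, on the usual scale on which a single count was worth 0.0674 and 0.0399 CPM in the vehicle and 0.0275 and 0.0655 CPM in the propranolol libraries. Intervals cover counting error only. Of the 10 marker lists examined, that of macrophages was the most abundant in all 4 libraries. The summed CPM of 10 macrophage markers was 17240 and 16370 in the vehicle and 20450 and 18470 in the propranolol libraries, with Lyz2 as the most abundant and none of the 10 at 0. Adgre1, which encodes F4/80, had 975 and 1008 CPM in the vehicle and 1151 and 1100 CPM in the propranolol libraries. Itgam, which encodes CD11b, had 359 and 352 against 369 and 313 CPM, with 68.7% of its exon bases shared with another gene model on the same strand. Ptprc, which encodes CD45, had 754 and 780 CPM in the vehicle and 479 and 442 CPM in the propranolol libraries, and fell by 0.74 on the log2 scale (adjusted p = 0.000301 from edgeR, lower in both treated libraries), with a value of 0.08 and no call after correction for the GC content of the genes. Csf1r, the receptor gene for a macrophage growth factor, rose by 0.59 on the log2 scale (adjusted p = 0.000624 from edgeR, higher in both treated libraries) and was called in 8 of 14 fits, and not after that correction (0.20), with upper-quartile factors, with the stricter filter on low counts or without propranolol replicate 2 (0.55). The other 8 macrophage markers were not called, but after GC correction Mrc1 (0.73) was called higher and C1qa (-0.63) lower.

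The 10 genes did not behave as a single block. Pthlh, Robo1 and Nfib were scarce after propranolol, with means 13.5 to 16.8 times higher in the vehicle libraries. Twist1, Prrx1, Pdgfra and Cald1 were between 3.10 and 4.34 times higher in the vehicle libraries, Pdgfrb was 1.74 times higher, and for Acta2 and Tagln the groups overlapped. Over all genes tested with the edgeR quasi-likelihood test, 2286 of 14688 (15.6%) were called lower after propranolol at an adjusted p under 0.05 and more than 1.5-fold, and 1798 (12.2%) were called higher, 4084 (27.8%) in all. By the same rule 7 of the 10 genes were called lower and 0 higher, and since these genes were picked from this comparison nothing is read from that count. Both propranolol libraries lay below both vehicle libraries in 8 of the 10 genes and in 36.9% of all tested genes. The median log2 fold change was -2.02 over the 10 genes, -1.11 without vehicle replicate 1, and -0.02 over all tested genes. In RNA from a bulk sort, fewer cells of a type and less RNA per cell cannot be told apart.

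**Figure D1:**
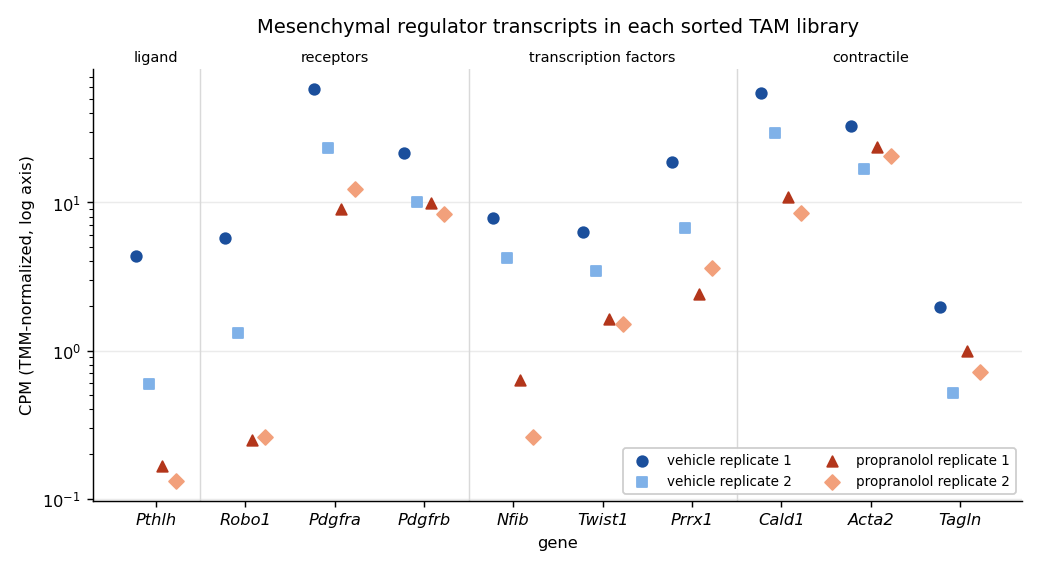
CPM on a log axis for each of the 10 genes, with 1 point for each library (blue for vehicle, red and orange for propranolol). Vehicle replicate 1 is the highest point for every gene, and the propranolol points lie below both vehicle points except for Acta2 and Tagln.

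Vehicle replicate 1 held more of every one of these transcripts than vehicle replicate 2. The ratio of the former to the latter ranged from 1.83 for Twist1 to 7.33 for Pthlh, with a median of 2.33. All 10 genes were more than 1.5 times higher in vehicle replicate 1, against 7.66% of all tested genes, whose median ratio was 1.002. Since the genes were picked from a comparison that uses these libraries, nothing is read from that difference. The propranolol libraries were closer to each other for all of the genes but Nfib, with ratios from 0.664 to 2.42 and a median of 1.16. The fitted differences of the 10 genes were all nearer to 0, or above it, without vehicle replicate 1, and the values without it are given for each of the 10 genes beside those of all 4 libraries. Without it, 4 of the 10 genes were called lower, beside 10.4% of all genes tested in that fit, and nothing is read from that count either.

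Pthlh (ENSMUSG00000048776.8, GRCm38 chr6:147252101-147264183, - strand), the only secreted ligand among the 10, had 4.38 and 0.598 CPM in the vehicle libraries and 0.165 and 0.131 CPM in the propranolol libraries. These are 65 and 15 counts against 6 and 2, and the counting interval (95%, exact Poisson) of propranolol replicate 2 reached from 0.0159 to 0.473 CPM. The groups did not overlap, but a 7.33-fold gap separated the vehicle libraries themselves. The fitted log2 fold change was -3.93 (standard error 0.98), and -1.89 (1.41) without vehicle replicate 1.

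Robo1 (ENSMUSG00000022883.11, GRCm38 chr16:72308306-73046095, + strand), the SLIT receptor, had 5.73 and 1.32 CPM in the vehicle libraries and 0.248 and 0.262 CPM in the propranolol libraries. Both treated libraries were low, at 9 and 4 counts, and vehicle replicate 1 was 4.36 times higher than vehicle replicate 2. The log2 fold change was -3.74 (standard error 0.77), and -2.30 (1.04) without vehicle replicate 1.

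The platelet-derived growth factor receptors had different fold changes, and the difference between them was not tested. Pdgfra (ENSMUSG00000029231.15, GRCm38 chr5:75152292-75198215, + strand) had 58.5 and 23.4 CPM in the vehicle libraries and 9.08 and 12.2 CPM in the propranolol libraries, so that every vehicle value stood well above every treated value. Its log2 fold change was -1.95 (standard error 0.35), and -1.09 (0.22) without vehicle replicate 1. Pdgfrb (ENSMUSG00000024620.11, on chromosome 18) had 21.7 and 10.1 CPM in the vehicle libraries and 9.90 and 8.38 CPM in the propranolol libraries. Vehicle replicate 2 and propranolol replicate 1 were nearly level for this gene. Its log2 fold change was -0.77 (standard error 0.31), -0.08 (0.26) without vehicle replicate 1 and -1.18 (0.31) after GC correction. Pdgfrb was not called with the main settings. It was called lower with DESeq2, without the filter on low counts, with the replicate number as a block and after GC correction. It was not called with DESeq2 size factors, upper-quartile factors or the stricter filter. With a library left out its log2 fold change ranged from -1.22 to -0.08. Since Pdgfrb was picked from this comparison, nothing is read from these calls.

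Nfib (ENSMUSG00000008575.17, GRCm38 chr4:82290173-82705750, - strand) had the most negative fold change of the 3 transcription factor genes. It had 7.89 and 4.23 CPM in the vehicle libraries and 0.633 and 0.262 CPM in the propranolol libraries, or 117 and 106 counts against 23 and 4. Each vehicle library was far above each treated library, and the log2 fold change of -3.60 (standard error 0.50) was -3.05 (0.58) without vehicle replicate 1 and -4.48 (0.66) without propranolol replicate 1. Twist1 (ENSMUSG00000035799.6, GRCm38 chr12:33957671-33959829, + strand), a basic helix-loop-helix factor, had 6.27 and 3.43 CPM in the vehicle libraries and 1.62 and 1.51 CPM in the propranolol libraries. The treated libraries were almost level, and the log2 fold change was -1.61 (standard error 0.40), or -1.07 (0.49) without vehicle replicate 1. Prrx1 (ENSMUSG00000026586.16, GRCm38 chr1:163245119-163313710, - strand), a homeobox factor, had 18.9 and 6.70 CPM in the vehicle libraries and 2.39 and 3.60 CPM in the propranolol libraries. Its vehicle libraries differed by 2.82-fold, and its log2 fold change of -2.11 (standard error 0.44) became -1.14 (0.36) without vehicle replicate 1.

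Cald1 differed from the other contractile genes. Cald1 (ENSMUSG00000029761.16, GRCm38 chr6:34598500-34775473, + strand) had 55.1 and 29.5 CPM in the vehicle libraries and 10.9 and 8.51 CPM in the propranolol libraries, without overlap. Its log2 fold change was -2.09 (standard error 0.27), and -1.53 (0.22) without vehicle replicate 1. Acta2 (ENSMUSG00000035783.8, GRCm38 chr19:34241090-34255590, - strand) had 32.7 and 16.9 CPM in the vehicle libraries and 23.7 and 20.8 CPM in the propranolol libraries, which lay between the vehicle values. Its log2 fold change of -0.13 (standard error 0.25) turned to 0.46 (0.22) without vehicle replicate 1. Tagln (ENSMUSG00000032085.5, GRCm38 chr9:45929619-45936058, - strand) had 1.96 and 0.518 CPM in the vehicle libraries and 0.990 and 0.720 CPM in the propranolol libraries, again within the span of the vehicle values. Its log2 fold change of -0.44 (standard error 0.68) turned to 0.79 (0.96) without vehicle replicate 1. Of the exon bases of Tagln, 62.4% are shared with the antisense gene model Gm48529, and no strand option is named for the counting. It was not tested for which gene, if any, reads from that part were counted. Gm48529 had 17 and 27 counts in the vehicle and 47 and 16 in the propranolol libraries, against 29 and 13, and 36 and 11, for Tagln.

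**Figure D2:**
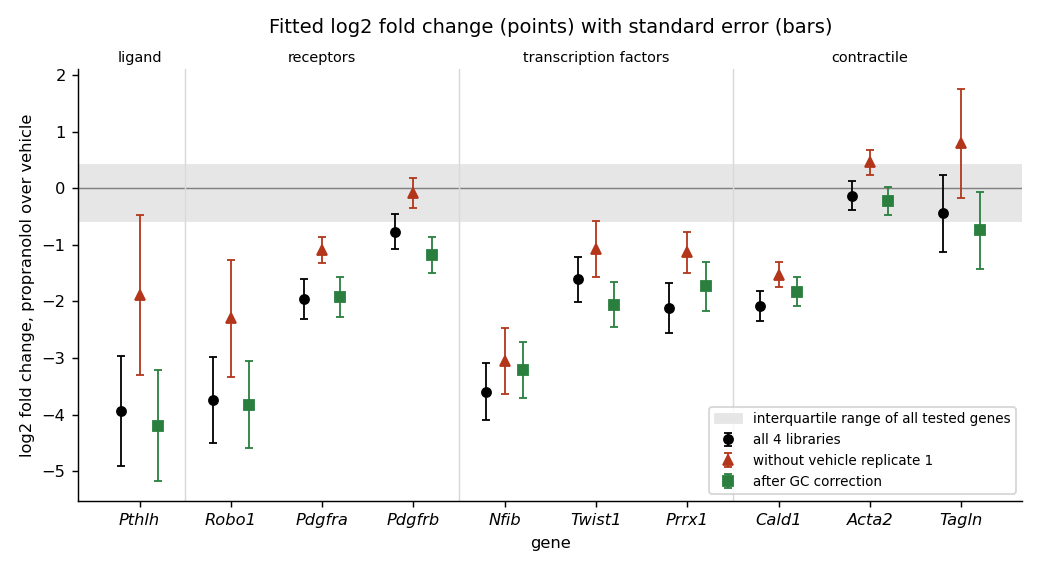
Fitted log2 fold change (propranolol over vehicle) of each gene with its standard error, from all 4 libraries, without vehicle replicate 1 and after GC correction. The gray band is the interquartile range of all tested genes, -0.58 to 0.41. All genes but Pdgfrb, Acta2 and Tagln stay below the band in all 3 settings, and Acta2 and Tagln move above 0 without vehicle replicate 1.

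Promoters of these genes are shown for the contrast among the genes that SRF is known to control, since Cald1 and Acta2 took different courses. RefSeq promoters (GRCm38.p6) were found for 7 of the 10 genes, and not for Tagln, Nfib and Pdgfrb. The 250 bases before each start were searched for the CArG box, the motif that SRF binds. The box was counted in its full form and, separately, with 1 of its 6 inner bases other than A or T. The full form stood in 1.47% and the deviating form in 7.24% of all 32851 promoters in windows of the same length. Below, each stretch is written 5′ to 3′ along the gene, in lower case, with matches to either form in capitals. The Acta2 start has matches of the deviating form from -84 to -75 and from -34 to -25, counted from the start, both starts of Cald1 have none, and Robo1, which is shown as the only other of these promoters with a match, has a full form from -60 to -51. The RefSeq starts of Robo1, Acta2 and Cald1 all lie inside the gene spans of GENCODE. The windows of Robo1 and of the downstream start of Cald1 lie wholly within these spans, and that of Acta2 in large part.
Acta2 (chr19:34255374-34255623, - strand): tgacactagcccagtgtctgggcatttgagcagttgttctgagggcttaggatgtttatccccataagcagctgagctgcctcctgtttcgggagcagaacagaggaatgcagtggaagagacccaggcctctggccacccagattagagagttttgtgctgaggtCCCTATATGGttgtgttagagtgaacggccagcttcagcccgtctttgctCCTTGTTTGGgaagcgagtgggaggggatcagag
Cald1, upstream start (chr6:34598254-34598503, + strand): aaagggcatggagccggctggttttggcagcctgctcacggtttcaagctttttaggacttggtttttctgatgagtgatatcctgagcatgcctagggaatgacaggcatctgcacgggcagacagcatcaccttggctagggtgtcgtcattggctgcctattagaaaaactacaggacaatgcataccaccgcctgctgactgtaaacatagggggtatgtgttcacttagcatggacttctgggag
Cald1, downstream start (chr6:34709194-34709443, + strand): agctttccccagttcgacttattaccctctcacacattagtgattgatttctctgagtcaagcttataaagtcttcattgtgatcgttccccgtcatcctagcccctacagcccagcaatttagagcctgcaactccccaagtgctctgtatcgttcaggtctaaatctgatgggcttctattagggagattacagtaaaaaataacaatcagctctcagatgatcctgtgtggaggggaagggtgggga
Robo1 (chr16:72662899-72663148, + strand): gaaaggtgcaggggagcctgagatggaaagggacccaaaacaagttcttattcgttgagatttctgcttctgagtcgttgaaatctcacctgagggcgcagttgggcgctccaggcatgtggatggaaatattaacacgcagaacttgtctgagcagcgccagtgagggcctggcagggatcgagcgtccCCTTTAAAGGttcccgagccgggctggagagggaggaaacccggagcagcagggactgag

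Matches are letters in a window and not measured binding, and a gene without a match may be bound elsewhere. Whether the boxes bear on the different courses of Cald1 and Acta2 was not tested. The E-box, which basic helix-loop-helix factors such as TWIST1 bind and whose letters are CANNTG, was found on either strand in 6 of the 8 promoters and in 66.2% of all promoters. The cAMP response element TGACGTCA was in 0 of the 8 promoters and in 1.55% of all. Its shorter part TGACG, which the full element contains, was found on either strand in 4 of the 8, those of Twist1, Pdgfra and both starts of Cald1, and in 17.8% of all.

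Levels were compared between genes on a scale per transcript length (TPM, in which counts are divided by the exon length of each gene and scaled to 1 common total). In the vehicle libraries Acta2 was the most abundant, with 37.3 ± 16.2 TPM (SD, n = 2), followed by Pdgfra with 13.5 ± 7.96, Cald1 with 11.6 ± 4.76, Twist1 with 9.85 ± 3.90 and Pdgfrb with 9.59 ± 4.79. Pthlh had 5.05 ± 5.39 TPM, Prrx1 3.81 ± 2.51, Tagln 2.05 ± 1.66, Nfib 1.34 ± 0.548 and Robo1 0.702 ± 0.614 (SD, n = 2). From Pdgfra down to Nfib, neighbours in this order differed by less than the larger of their SDs. In the propranolol libraries the order was Acta2 with 28.4 ± 1.85 TPM, Pdgfrb with 4.69 ± 0.420, Pdgfra with 3.00 ± 0.714, Twist1 with 2.70 ± 0.0665 and Cald1 with 2.27 ± 0.338 (SD, n = 2). Pdgfrb thus stood below Pdgfra in the vehicle means and above it in both propranolol libraries. Nfib and Robo1 were the scarcest there, at 0.0835 ± 0.0470 and 0.0435 ± 0.00296 TPM (SD, n = 2).

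Transcripts of fibroblasts were lower after propranolol and highest in vehicle replicate 1. The summed CPM of 14 fibroblast markers was 3634 and 1400 in vehicle replicates 1 and 2 and 834 and 859 in the propranolol libraries, and the most abundant was the fibrillar collagen gene Col3a1 in the vehicle libraries and its relative Col1a1 in the propranolol libraries. None of the 14 was at 0 in all libraries. By the edgeR quasi-likelihood test, 11 of the 14 fell and 0 rose, against 15.6% and 12.2% of all tested genes. Lum, Mfap5 and Pdpn were not called. Thy1, one of the 11, had 82.5 and 86.1 CPM in the vehicle and 45.9 and 25.9 CPM in the propranolol libraries. It was thus not highest in vehicle replicate 1, and which cells its transcripts came from was not tested. With DESeq2 8 fell, against 13.8% of all tested genes, with Col1a1, Col1a2 and Loxl1 no longer called. Without vehicle replicate 1, 6 of the 14 fell, against 10.4% of all genes tested in that fit, and after GC correction 9 fell, against 6.47%, with Dcn (-0.99) and Fap (-0.76) no longer called. Postn, which encodes the matrix protein periostin, fell with a log2 fold change of -2.54 (adjusted p = 0.001 from edgeR, lower in both treated libraries). It had -1.40 without vehicle replicate 1. After GC correction Postn had -1.33 and was called, but it was not called with GC correction without recentring. Pdpn, which encodes podoplanin, had 55.8 and 40.1 CPM in the vehicle and 62.3 and 45.0 CPM in the propranolol libraries. The part of fibroblasts or fibrosarcoma cells carried through the sort in the differences of the 10 genes was not tested, and their transcripts cannot be told apart in these libraries.

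The 9 markers of pericytes and mural cells summed to 80.8 and 36.5 CPM in the vehicle and 33.99 and 33.1 CPM in the propranolol libraries, with none at 0 in all libraries. Rgs5 was the most abundant in the vehicle mean, at 18.8 CPM, and Cspg4 in the propranolol mean, at 20.04 CPM. Of the 9 markers, 2 fell by the edgeR test, beside 15.6% of all tested genes, Rgs5 with a log2 fold change of -2.71 (adjusted p = 0.00194) and Abcc9 with -1.93 (adjusted p = 0.0298), each lower in both treated libraries. Abcc9 was not called without vehicle replicate 1 (-0.48), where 1 marker fell and 1 rose, beside 10.4% and 12.4% of all genes tested in that fit. After GC correction 4 of the 9 were called lower, beside 6.47% of all tested genes, as Abcc9 (-1.76) lost its call and Notch3 (-1.31), Mcam (-1.37) and Ndufa4l2 (-1.68) gained one. The count was 5 without vehicle replicate 2, 5 with the replicate block and 6 with GC correction and the block, beside 14.9%, 17% and 9.04% of all genes tested in those fits, so that it varied from 1 to 6 over the fits. The 9 endothelial markers summed to 50.1 and 44.6 CPM in the vehicle and 60.2 and 55.3 CPM in the propranolol libraries, with Pecam1 the most abundant and none at 0 in all libraries. Cdh5, which encodes VE-cadherin, was the 1 endothelial marker called and rose (log2 fold change 0.77, adjusted p = 0.0374 from edgeR, higher in both treated libraries), but was called in 6 of 14 fits, and not after GC correction (0.49), with DESeq2, with upper-quartile factors or without vehicle replicate 2 (0.60), propranolol replicate 1 (0.78) or propranolol replicate 2 (0.78). Without vehicle replicate 1, 2 endothelial markers rose. With GC correction and the block, 1 endothelial marker, Esam, was called lower and 0 higher, beside 9.04% and 4.82% of all tested genes. Vehicle replicate 1 was 2.60 times higher than vehicle replicate 2 in the fibroblast sum, 2.21 times in the pericyte sum and 1.12 times in the endothelial sum. Vehicle replicate 1 was the higher in 13 of the 14 fibroblast markers, all but Thy1, and in 8 of the 9 endothelial markers, all but Pecam1, without which the endothelial sum was 1.44 times higher.

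**Figure D3:**
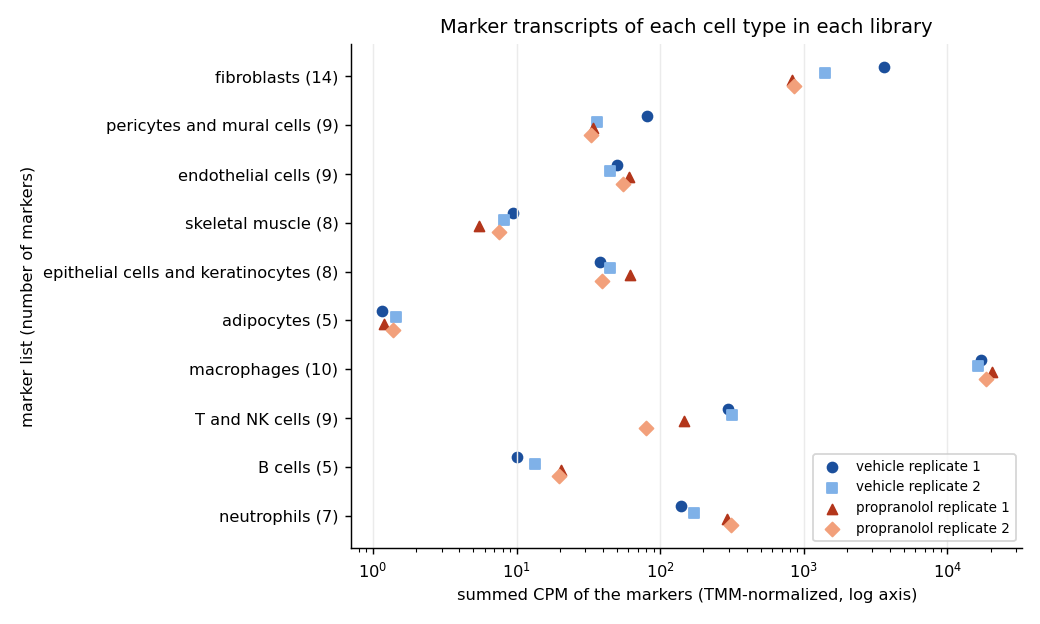
Summed CPM (log axis) of the markers of each cell type in each library, with the number of markers in brackets. The fibroblast sum spans 834 to 3634 CPM with vehicle replicate 1 highest, while the macrophage sum stays between 16370 and 20450 CPM.

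Among leukocytes other than macrophages, the 9 T and NK cell markers summed to 295 and 318 CPM in the vehicle and 147 and 79.8 CPM in the propranolol libraries, with Gzmb the most abundant, and 8 of them fell by the edgeR test, beside 15.6% of all tested genes. The 7 neutrophil markers summed to 140 and 173 CPM in the vehicle and 292 and 310 CPM in the propranolol libraries, with Csf3r the most abundant, and 3 of the 4 tested rose, beside 12.2% of all tested genes. The 5 B cell markers summed to 9.98 and 13.5 CPM in the vehicle and 20.3 and 19.7 CPM in the propranolol libraries, with Cd79b the most abundant. Cd79b rose and Ms4a1 fell, and neither was called after GC correction (0.40 and -2.03). Ms4a1 was called in 7 of 14 fits, and not with any library left out or with DESeq2. None of these 21 markers was at 0 in all libraries. Vehicle replicate 1 was not above vehicle replicate 2 in any of these sums, unlike the 10 genes.

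Expressed against the fibroblast transcripts of the same library, the 10 genes took different courses. Per 1000 CPM of the 14 fibroblast markers, Nfib had 2.17 and 3.02 CPM in the vehicle and 0.758 and 0.305 CPM in the propranolol libraries, Robo1 had 1.58 and 0.940 against 0.297 and 0.305, and Pthlh had 1.21 and 0.427 against 0.198 and 0.152. These were lower in the treated libraries on this scale too, by 4.88-, 4.18- and 4.66-fold in the means. With vehicle replicate 2 as the only vehicle library the folds were 5.68, 3.12 and 2.44, so that much of the difference of Pthlh was in vehicle replicate 1 on this scale too. Twist1 had 1.73 and 2.45 against 1.95 and 1.75, so that the groups overlapped. Prrx1, Pdgfra and Cald1 were 1.41, 1.31 and 1.57 times higher in the vehicle means, without overlap. Acta2 had 8.999 and 12.0 CPM per 1000 in the vehicle and 28.4 and 24.2 in the propranolol libraries, Tagln had 0.538 and 0.370 against 1.19 and 0.838, and Pdgfrb had 5.98 and 7.21 against 11.9 and 9.75. These were higher in both treated libraries on this scale, by 2.50-, 2.23- and 1.64-fold in the means. The fibroblast sum itself was 2.97 times higher in the vehicle mean, so that genes with even CPM also rise on this scale. When Col3a1 alone was the denominator, a choice made after the data were seen, 3 genes stayed below and 3 above, and Prrx1, Pdgfra, Cald1 and Twist1 overlapped between the groups. With Col1a1 alone, chosen in the same way, 7 genes lay below, Twist1 among them, and 3 above. The share of all tested genes below or above on these scales was not computed, and nothing is read from these counts.

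**Figure D4:**
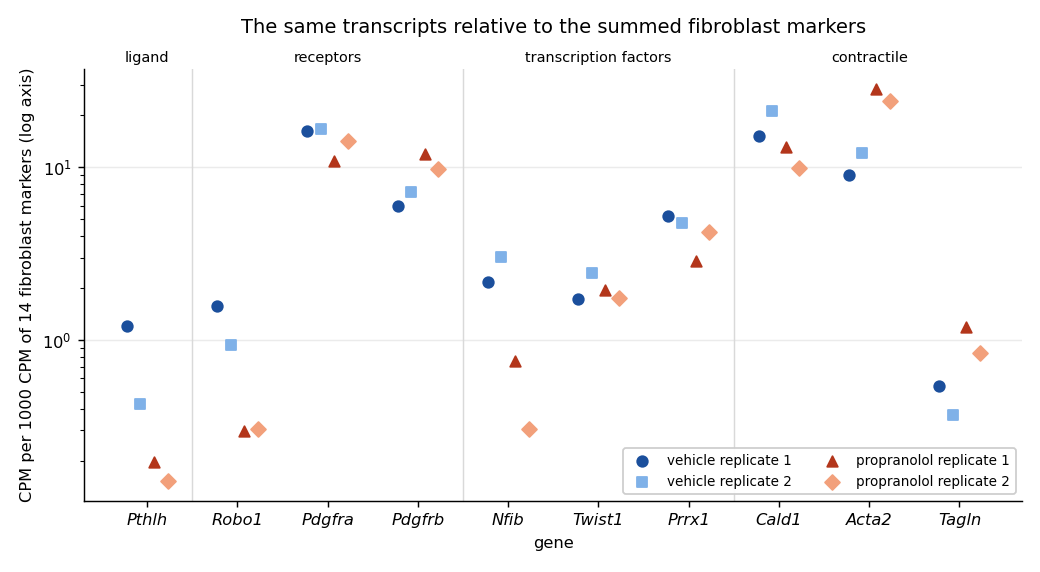
CPM of each gene per 1000 CPM of the 14 summed fibroblast markers of the same library, on a log axis, with 1 point for each library. Pthlh, Robo1 and Nfib lie lower in the propranolol libraries, Acta2, Tagln and Pdgfrb lie higher, and the vehicle libraries are close together for Pdgfra, at 16.1 and 16.7.

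The genes whose pattern over the 4 libraries came nearest to the mean pattern of the 10 genes were Gjc1, Gas1, Il1r1, Lox, Mfap2, Col3a1, Bgn, Cavin3, Mgp and C1s1. Likeness was the Euclidean distance of centered log2 CPM over 4 libraries, from 0.0706 for Gjc1, which encodes a gap junction protein, to 0.281 for C1s1, which encodes a complement protease. Lox, which encodes the enzyme that cross-links collagen, had 39.8 and 13.1 CPM in the vehicle and 6.38 and 5.50 CPM in the propranolol libraries. Bgn, which encodes the matrix proteoglycan biglycan, had 246 and 89.1 against 54.9 and 45.1 CPM, and Mgp, which encodes matrix Gla protein, had 49.6 and 17.2 against 7.84 and 6.48 CPM. All had their highest value in vehicle replicate 1 and their lower values in both treated libraries, which the way they were found fixes.

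Other genes of the same pathways were taken from 5 lists of 137 genes, of which 116 were tested. By the edgeR quasi-likelihood test, 23 fell and 11 rose, so that 19.8% fell and 9.48% rose, against 15.6% and 12.2% of all tested genes. Without vehicle replicate 1 the split turned, with 12 lower and 15 higher, against 10.4% and 12.4% of all genes tested in that fit. After GC correction 24 were called lower and 1 higher, against 6.47% and 4.34% of all tested genes, and 35 and 1 with the replicate block as well, against 9.04% and 4.82%. Their median log2 fold change was -0.30, against -0.02 over all tested genes.

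Of 39 mesenchymal transcription factor genes, 30 were tested, of which 10 fell and 0 rose, beside 15.6% and 12.2% of all tested genes. The median log2 fold change of the list was -1.02. The 4 most abundant, Zeb2, Nfic, Tcf4 and Runx1, are also transcribed in leukocytes, and none of the 4 was called. Zeb2 had 334 and 349 CPM in the vehicle and 265 and 293 CPM in the propranolol libraries, and the NFIB relative Nfic had 259 in each vehicle library and 285 and 310 CPM in the propranolol libraries. Other genes of this list are named after their values were seen. Wwtr1, which encodes the Hippo pathway coactivator TAZ, had 32.1 and 12.4 CPM in the vehicle and 4.54 and 4.85 CPM in the propranolol libraries, and fell by 2.23 ± 0.38 on the log2 scale (standard error; adjusted p = 0.00124 from edgeR), or by 1.35 without vehicle replicate 1. Its DNA-binding partner Tead1 fell from 18.1 and 9.77 to 4.04 and 4.06 CPM, or by 1.77 ± 0.30 on the log2 scale (edgeR adjusted p = 0.00122), or by 1.21 without vehicle replicate 1. Yap1, the related coactivator, had 12.3 and 4.70 against 2.97 and 3.60 CPM, with a log2 fold change of -1.36 (adjusted p = 0.0235 from edgeR), and -0.47 (adjusted p = 0.372, the highest over the alternatives) without vehicle replicate 1. Msx1, a homeobox gene, had 1.55 and 1.71 CPM in the vehicle and 0.193 and 0.262 CPM in the propranolol libraries, and fell by 2.88 ± 0.62 on the log2 scale (edgeR adjusted p = 0.00446). Msx1 was thus level between the vehicle libraries, unlike the 10 genes, and remained called in each of the 13 alternative fits. Without vehicle replicate 1, Foxf1 (-1.44), Osr2 (-0.75), Hic1 (-0.39) and Meis2 (-1.58) were not called either. Hic1 was also not called without propranolol replicate 1 (-0.54) or 2 (-0.61), and Meis2 was not called without any of the other libraries (-1.83 to -1.25). Neither was called with DESeq2 or without the filter on low counts, and Hic1 was called in 9 and Meis2 in 5 of 14 fits. After GC correction, Yap1 (-1.12) and Meis2 (-1.23) were not called, and Prrx2 (-1.52) and Nfix (-0.79) were called lower. Zeb1 (-1.02) and Runx2 (-0.83) also fell and were called in every fit.

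Among 21 tested genes of 22 in PDGF signalling, 4 fell and 2 rose, beside 15.6% and 12.2% of all tested genes. The median log2 fold change of the list was -0.20. The ligand gene Pdgfb was one of the most abundant, at 148 and 186 CPM in the vehicle and 184 and 196 CPM in the propranolol libraries, and was not called. The adaptors Grb2 and Cbl and the phosphatase Ptpn11, the other 3 of the most abundant, were not called, but Grb2 was called lower after GC correction (-0.60), as were Plcg1 (-0.74) and Nck2 (-0.77). The fallen genes were Rasa1, which encodes a GTPase-activating protein for RAS (log2 fold change -1.18, adjusted p = 0.000241 from edgeR), Pdgfrl (-1.29), Sos1 (-0.78) and Pik3ca (-0.64). After GC correction, Pdgfrl (-0.97), Sos1 (-0.15) and Pik3ca (-0.03) were no longer called. Pdgfrl (-0.66) and Pik3ca (-0.55) were not called without vehicle replicate 1, and neither were Pdgfrl (-1.21) and Pik3ca (-0.56) without propranolol replicate 1. Pik3ca was also not called without the filter on low counts, nor Rasa1 with GC correction without recentring. The risen genes were Gab1, which encodes a docking protein (1.04, adjusted p = 0.00116 from edgeR), and Pik3r2 (0.80), of which Pik3r2 was not called after GC correction (0.38).

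In SLIT-ROBO signalling, 17 of 21 genes were tested, 2 fell and 2 rose, beside 15.6% and 12.2% of all tested genes. The median log2 fold change of the list was 0.08. Slit2, which encodes a ligand of ROBO1, had 10.8 and 4.82 CPM in the vehicle and 1.49 and 1.18 CPM in the propranolol libraries. It fell by 2.50 ± 0.42 on the log2 scale (edgeR adjusted p = 0.00126), or by 1.77 without vehicle replicate 1, and was called in all 13 alternatives, so that ligand and receptor transcripts were both low after propranolol. Srgap3, which encodes a GTPase-activating protein that binds ROBO receptors, fell by 0.65 on the log2 scale and was not called without vehicle replicate 2 (-0.52) or propranolol replicate 2 (-0.49), nor without the filter on low counts. Myo9b (0.68) and Sdc1 (0.76) rose, but neither was called after GC correction (0.23 and 0.33) or without propranolol replicate 2 (0.51 and 0.58), nor was Sdc1 without vehicle replicate 2 (0.56). The actin regulators Cap1 and Vasp and the kinase gene Abl1, which with Myo9b were the most abundant, were not called.

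In PTHrP signalling, 17 of 21 genes were tested, 1 fell and 2 rose, beside 15.6% and 12.2% of all tested genes. The median log2 fold change of the list was 0.00. Pth1r, which encodes the receptor for the Pthlh product, had 0.540 and 0.279 CPM in the vehicle and 0.853 and 0.917 CPM in the propranolol libraries and was not called. Gnas, which encodes the stimulatory G protein alpha subunit, fell from 25.02 and 18.2 to 11.8 and 14.4 CPM (log2 fold change -0.72, adjusted p = 0.0133 from edgeR), and was not called without vehicle replicate 1 (-0.43) or propranolol replicate 1 (-0.57). Gnas shares 13.1% of its exon bases with the gene model Gm20721 and 8.83% with Nespas, both on the other strand. Arrb2, which encodes a beta-arrestin (0.76), and Furin, which encodes a proprotein convertase (0.72), rose but were not called after GC correction (0.32 and 0.28). Arrb1 and Gnaq, the other most abundant genes of this list, were not called, and Pth2 and Pth2r had 0 counts in all libraries.

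Of 34 genes of SRF and the contractile apparatus, 31 were tested, 6 fell and 5 rose, beside 15.6% and 12.2% of all tested genes. The median log2 fold change of the list was -0.10. The risen genes were Flna, Myl6, Pdlim7, Srf and Zyx. Flna, which encodes the actin cross-linker filamin A, had 1196 and 1290 CPM in the vehicle and 2318 and 2463 CPM in the propranolol libraries (log2 fold change 0.94, standard error 0.09, adjusted p = 0.000103 from edgeR). Srf itself had 78.8 and 81.9 against 124 and 136 CPM (0.69, adjusted p = 0.000684 from edgeR). These genes are also active in macrophages, and none of the 5 was called after GC correction, where Flna had 0.57 and Srf 0.39. Myh10 (-0.77) was called lower there. Flna and Myl6 were called higher with GC correction without recentring. Zyx was also not called with upper-quartile factors. Myh9, Tpm3 and Tagln2, which with Flna were the most abundant, were not called. Among the fallen genes, named after their values were seen, Ccn2, which encodes a matricellular growth factor, had 11.6 and 5.06 CPM in the vehicle and 1.98 and 1.38 CPM in the propranolol libraries (-2.25, standard error 0.42, adjusted p = 0.00214 from edgeR, and -1.50 without vehicle replicate 1). Its relative Ccn1 had 42.5 and 20.5 against 11.5 and 13.3 CPM (-1.34, standard error 0.28, adjusted p = 0.00422 from edgeR, and -0.68 without vehicle replicate 1). Cnn3 (-1.19) also fell, and Ccn1, Ccn2 and Cnn3 were called in every fit. Fhl2 (-0.61), Tpm2 (-0.50) and Tgfb1i1 (-0.70) were not called without vehicle replicate 1, nor was Tpm2 (-0.65) without propranolol replicate 1 or Tgfb1i1 (-0.61) without propranolol replicate 2. Tgfb1i1 was called in 9 of 14 fits, and not with DESeq2, without the filter on low counts or with GC correction without recentring. Of the exon bases of Ccn2, 23.2% are shared with the gene model Gm15270.

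**Figure D5:**
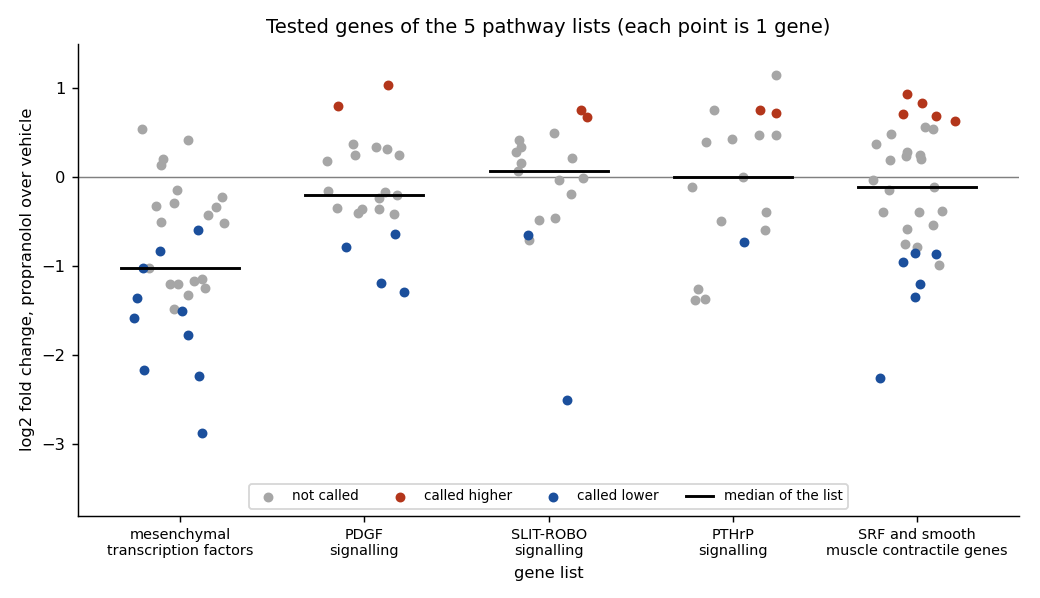
Log2 fold change (propranolol over vehicle) of each tested gene of the 5 pathway lists, with 1 point for each gene, called genes in color and the list median as a bar. The median of the mesenchymal transcription factors is -1.02 and those of the other lists lie between -0.20 and 0.08.

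Fold changes in these libraries went with the GC content of the genes, with a Spearman correlation of 0.577 over 14681 genes, which are not independent. The 10 genes were spread over GC contents of the longest transcript from 43.3% for Nfib to 59.3% for Twist1. Among 10 equal groups of genes by GC content, the group that held each gene had a median log2 fold change of -0.59 for Nfib and Prrx1, -0.33 for Cald1, -0.01 for Robo1, Pdgfra and Acta2, 0.27 for Pthlh and Tagln, 0.37 for Pdgfrb and 0.46 for Twist1. After the trend was removed, the log2 fold changes were -4.19 for Pthlh, -3.82 for Robo1, -3.21 for Nfib, -2.06 for Twist1, -1.93 for Pdgfra, -1.83 for Cald1 and -1.74 for Prrx1. They were -1.18 for Pdgfrb, -0.74 for Tagln and -0.23 for Acta2. Pthlh, Robo1 and Nfib thus stayed the lowest and Tagln and Acta2 the nearest to 0, while Twist1, Pdgfra, Cald1 and Prrx1, which lay between, came in the reverse of their former order.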

How the data were processed

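Reads had been mapped by the authors to mm10 (STAR 2.7.1a), filtered on mapping quality (SAMtools 1.9) and counted in pairs (featureCounts 1.6.4) on the exons of a GENCODE annotation whose release and strand option are not given in the sources used here. The deposited values are whole-number counts for each gene without normalization, 1 column per library, and 0 columns were left out.

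Identifiers were matched to GENCODE M21 (GRCm38) for 54079 of 54146 genes. R 4.3.3 and edgeR 4.0.16 were used. Library sizes were TMM-normalized (factors 1.08 and 1.09 for vehicle, 0.914 and 0.931 for propranolol), filterByExpr with a minimum count of 10 kept 14688 genes, and the groups were compared with the quasi-likelihood test and Benjamini-Hochberg adjustment over all of these. A gene was called at an adjusted p under 0.05 and more than 1.5-fold. Standard errors come from the coefficient and the F statistic. An exact permutation of 2 against 2 libraries cannot give a p below 0.333. GC correction removed a natural spline (5 degrees of freedom) of each library's log2 CPM deviation on GC content through offsets. The alternatives, with DESeq2 1.42.0 among them, are in the closing section, and the fits were tested on simulated data. The simulation used the same dispersion between replicates (0.0172) for all genes. It therefore does not cover gaps between vehicle libraries such as those of the 10 genes.

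The members, the 5 pathway lists and the 10 marker lists were chosen with earlier results of these data known. Genes named are the 10 members, the 4 most abundant tested genes of each pathway list, called genes where 5 or fewer were called in a direction, the most abundant marker of each list, and the 10 genes nearest to the mean pattern of the members. Genes outside this rule, among them the markers other than the most abundant and the gene Pth1r, were named after their values were seen. GC correction without recentring, the other fibroblast denominators and the alternatives for the marker lists were also chosen after the data were seen.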

Additional observations from a re-analysis of the deposited data

How the results depend on the processing

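The count of genes called was 4084 with 1798 higher and 2286 lower. It was 1587 after GC correction (637 higher, 950 lower), 2036 with GC correction and the replicate number as a block, 1855 with GC correction without recentring (1121 higher, 734 lower) and 728 at a log2 fold change above 1.5. With a library left out it ranged from 3615 to 4329. The other settings (DESeq2 test, DESeq2 size factors, upper-quartile factors, no filter, stricter filter) kept it within 1.5 times. Of the 10 genes, which were picked from this comparison, 4 to 8 were called lower with a library left out (10.4% to 15% of all tested genes), 4 of them without vehicle replicate 1 (Nfib, Prrx1, Pdgfra and Cald1), and 6 to 8 in the other settings (4.54% to 18.1%). Under the stricter filter Pthlh and Tagln were not tested. Acta2 and Tagln had log2 fold changes of -0.54 to 0.46 and of -1.15 to 0.79 with a library left out, the upper value in each case without vehicle replicate 1, and the cause was not tested. Of the pathway genes, 34 were called (11 higher, 23 lower), 22 with GC correction without recentring and 8 at a log2 fold change above 1.5, where the stricter threshold itself removes genes, and 27 to 47 with a library left out, the fewest without vehicle replicate 1. With Col3a1 as the denominator, 3 of the 10 genes lay below vehicle in place of 6, and with Col1a1 7 did. The share of all tested genes on these scales was not computed, and nothing is read from these counts. Replicate numbers pair the libraries only by number. The difference of replicates 1 and 2 correlated at 0.169 between the groups across genes. With the replicate block 4362 genes, 8 of the 10 genes and 38 pathway genes were called. With 2 libraries a group, low counts such as those of Pthlh and Robo1 after propranolol limit the precision of their fold changes.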

Other observations

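Markers of other tissues that a tumor under the skin can contain summed to less than the macrophage or fibroblast markers in every library. The skeletal muscle and adipocyte sums were also below the pericyte sum, but the epithelial sum exceeded it except in vehicle replicate 1. The 8 skeletal muscle markers summed to 9.44 and 8.13 CPM in the vehicle and 5.47 and 7.53 CPM in the propranolol libraries, lower in both treated libraries. Des was the most abundant in the vehicle mean, at 1.91 CPM, and Acta1 in the propranolol mean, at 1.62 CPM. Of the 7 tested, 1 fell by the edgeR test, Myh4, with a log2 fold change of -2.33, which was called in 6 of 13 fits and not with any library left out. The 8 markers of epithelial cells and keratinocytes summed to 38.0 and 44.8 CPM in vehicle and 61.6 and 39.6 CPM in propranolol libraries. Cdh1 was the most abundant, at 30.1 and 38.5 CPM in the vehicle and 55.8 and 33.3 CPM in the propranolol libraries. It made up most of the epithelial sum in each library. With all 4 libraries, 0 of the 5 tested markers were called. The 5 adipocyte markers summed to 1.15 and 1.44 CPM in the vehicle and 1.18 and 1.38 CPM in the propranolol libraries, with Cidec the most abundant. None of these 21 markers was at 0 in all libraries.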
